A study of Mus musculus with 11 samples.

Results

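S100 proteins are small proteins of vertebrate cells that bind calcium through a pair of EF-hand loops and mostly act as dimers. The family list given for these arrays names 8 mouse genes, S100a1, S100a4, S100a6, S100a8, S100a9, S100a10, S100a11 and S100a13, and each was read from its brightest probe set on average (11 arrays, probe sets that carry 1 gene symbol). Of the 8 genes, 7 were measured in this way, among 18193 genes tested. S100a11 was not analysed here because its probe set also carries the symbols of other genes. The choice of probe set did not use the groups.

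Macrophages were grown for 7 days from bone marrow of C57BL/6 mice that lack Rag1 (Rag1-/-, 7 weeks old) and were then sorted for F4/80, a macrophage surface protein. All groups therefore came from animals without mature T and B cells. M0 cells were kept without cytokines (5 arrays), M1 cells were given IFN-g and LPS, the LPS during the last 24 h (3 arrays), and M2a cells were given IL-4 and IL-13 (3 arrays). M0 was the common standard of the study, so M1 and M2a were each compared with M0 and then with each other. Replicates are numbered in the labels without word of separate mice. A p-value here thus sets a group difference only against the spread of these samples, and that spread may be technical.

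Every value is a deposited log2 probe-set value from an Affymetrix mouse array of 45101 probe sets, where a difference of 1 is 2-fold. Values of the table ran from 0.73 to 14.49 and array medians from 5.14 to 5.34. The number of arrays limits the precision. Arrays of M0 spread more widely than the others, with a median SD over genes of 0.24 against 0.082 for M1 and 0.086 for M2a. The M0 arrays were not independent of each other as deposited: on each probe set the mean of arrays 1 to 3 equalled that of arrays 4 and 5 to within 8.3e-05. The fit counts them as 5 independent arrays, which by itself makes p-values too small. All groups share an estimate of the spread, so this reaches M1 against M2a too. The wider spread of M0 also enters that estimate, and the net effect on the p-values was not tested. Control probe sets differed between the groups as well. Poly-A spike controls averaged 8.86 in M0, 5.32 in M1 and 6.02 in M2a, and 18S controls 9.25, 6.25 and 8.56. Signal at the 5′ end of actin less that at its 3′ end averaged -0.61, 0.15 and -0.57. For Gapdh this was -0.37, 0.57 and -0.30. M1 means of 18S, actin and Gapdh lay apart from both other groups. M0 array 5 came near M1, at 0.048 (actin) and 0.48 (Gapdh). Only actin of these was a covariate, and the part of the rest in the S100 differences was not tested. Hybridization controls averaged 11.15 ± 0.52 (SD, n = 5) in M0, 9.71 ± 0.058 (n = 3) in M1 and 9.86 ± 0.086 (n = 3) in M2a, and were highest on M0 arrays 1 and 4, at 11.70 and 11.69. With these controls as a covariate, every S100 difference called stayed called in its direction, while the M1 calls of some of the other genes named were lost (Adgre1, Gfi1, Irf8, Myh9, Cacybp, Cd33, Plac8 and F13a1) or turned in sign without a call (Chil1, 0.25, Ly96, -0.65, Ager, 0.38, Cd36, -0.72, and Fgf1, 0.13). In the sorted cells Adgre1, which encodes F4/80, lay between 10.78 and 11.59 in M0, between 12.37 and 12.49 in M1 and between 11.51 and 11.85 in M2a. Csf1r, the receptor for the macrophage growth factor CSF-1, lay between 11.69 and 13.48 over all arrays, so both genes were well up the scale in each group. Csf1r was nonetheless lower in M2a than in M0, with differences of -1.61 to -1.06 over the alternative analyses. Of 13 macrophage genes measured, 8 were lower than M0 in M2a and 3 in M1, while 2 and 6 were higher.

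Several S100 proteins have roles that are well known in myeloid cells. S100A8 and S100A9 pair to form calprotectin, which neutrophils and monocytes hold in large amounts, which withholds zinc and manganese from microbes and which, once released, acts through TLR4 and the receptor RAGE. S100A4 binds non-muscle myosin and is tied to cell motility, S100A6 (calcyclin) binds the calcyclin-binding protein CACYBP, and S100A10, whose loops no longer bind calcium, pairs with annexin A2 at the plasma membrane. S100A13 is known for a part in the release of IL-1 alpha and FGF1, and S100A1 for calcium handling in muscle.

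Most mouse S100 genes lie in one cluster on chromosome 3. In the RefSeq annotation no other protein-coding gene lies between consecutive members of the run S100a1, S100a13, S100a14, S100a16, S100a3, S100a2, S100a4, S100a5, S100a6, S100a7a, S100a8 and S100a9, while S100a11 and S100a10 lie next to each other further along, 54 protein-coding genes beyond S100a7l2. The promoters of the 4 genes with the largest differences between the macrophage states are shown, each as the 250 bases before the annotated start, 5′ to 3′ on the gene's own strand, from RefSeq (GRCm38.p6). Capitals mark the motifs found. Windows were matched by symbol for 7 of the 8 listed genes. The intervals are chr3:90668821-90669070 (plus strand) for S100a8, chr3:90695722-90695971 (minus strand) for S100a9, chr3:90603520-90603769 (plus strand) for S100a4 and chr3:90612644-90612893 (plus strand) for S100a6.

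S100a8: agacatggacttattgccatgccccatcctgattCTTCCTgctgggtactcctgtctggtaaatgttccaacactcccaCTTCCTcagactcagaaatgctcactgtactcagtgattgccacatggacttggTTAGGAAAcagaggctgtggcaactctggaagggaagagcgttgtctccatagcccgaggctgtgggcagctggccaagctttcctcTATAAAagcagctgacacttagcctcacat

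S100a9: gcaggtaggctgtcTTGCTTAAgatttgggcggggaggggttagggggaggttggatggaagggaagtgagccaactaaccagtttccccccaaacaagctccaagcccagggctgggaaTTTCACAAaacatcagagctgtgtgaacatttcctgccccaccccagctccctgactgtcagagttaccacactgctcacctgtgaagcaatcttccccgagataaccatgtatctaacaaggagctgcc

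S100a4: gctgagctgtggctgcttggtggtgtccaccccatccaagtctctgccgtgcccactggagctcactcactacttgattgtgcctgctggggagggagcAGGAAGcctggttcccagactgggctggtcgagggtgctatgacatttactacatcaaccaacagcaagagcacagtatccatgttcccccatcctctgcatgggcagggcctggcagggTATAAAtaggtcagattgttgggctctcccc

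S100a6: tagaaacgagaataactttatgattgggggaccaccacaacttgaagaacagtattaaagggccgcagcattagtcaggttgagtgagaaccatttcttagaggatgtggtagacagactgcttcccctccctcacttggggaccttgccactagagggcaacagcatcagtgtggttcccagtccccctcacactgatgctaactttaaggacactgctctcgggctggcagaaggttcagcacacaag

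The motifs were searched on both strands. The TATA box letters TATAAA were found 30 to 25 bases before the start of S100a8 and 31 to 26 bases before that of S100a4, and in 12.37% of all 32851 promoter windows of the table. The C/EBP-type pattern TTNNGNAA was found at TTAGGAAA in S100a8 (117 to 110 bases before the start) and, read on the opposite strand, at TTGCTTAA and TTTCACAA in S100a9 (236 to 229 and 130 to 123 bases before it); 36.85% of all windows hold it. The ETS-type letters AGGAAG were found in S100a4 and, read on the opposite strand as CTTCCT, at 2 places in S100a8, against 29.48% of all windows. None of the patterns TTCNNNGAA (STAT-type), the STAT6-type form with 1 more free base and the interferon-stimulated response element (ISRE), held by 7.02%, 5.85% and 2.98% of all windows, was found in any of the 7 windows. The AP-1-type pattern TGANTCA, held by 6.75% of windows, was found among the 7 in that of S100a11, at 2 places. The window of S100a6 held none of these motifs. These are matches of letters in a window and say nothing of binding.

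S100a1 and S100a13 start head to head. The 104 bases between their starts belong to both of their 250-base windows. This stretch, chr3:90514331-90514434, is shown on the plus strand, which is the strand of S100a13, because the 2 genes are set beside each other in the results.

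S100a1 to S100a13: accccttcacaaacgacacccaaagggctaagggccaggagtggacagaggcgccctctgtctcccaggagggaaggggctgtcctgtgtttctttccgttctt

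Compared with M0, 6 of the 7 S100 genes were lower in M1 and 4 of the 7 were lower in M2a. In M1 the large falls were those of S100a4, S100a6 and S100a9, with smaller ones of S100a8 and S100a10, and in M2a the large falls were those of S100a8 and S100a9. Between the 2 cytokine states the family split: S100a8 and S100a9 were higher in M1, and S100a4, S100a6 and S100a10 were higher in M2a. All counts are at an adjusted p under 0.05 in limma, with Benjamini-Hochberg adjustment over the 18193 genes. By that rule 39.7% of all genes were called in M1 against M0 (22.1% as higher, 17.6% as lower), 31.9% in M2a against M0 (18.6% as higher, 13.3% as lower) and 29.4% in M1 against M2a (13.7% as higher in M1, 15.6% as lower). No S100 gene was called higher than M0 in either state; at an unadjusted p under 0.05 in limma the count was 0 in M1 and 1, S100a10, in M2a.

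With a change of at least 2-fold in addition, the threshold that the design text names, 5 S100 genes were lower in M1 than M0 where 6.41% of all genes were, 2 were lower in M2a than M0 where 4.95% were, and between M1 and M2a the 2 higher and 3 lower genes all passed, where 5.51% and 5.47% of all genes did. The arrays of the groups did not overlap for 6 of the 7 genes in M1 against M0, for 4 in M2a against M0 and for 5 in M1 against M2a; over all genes these shares were 40.1%, 35.1% and 64.6%. The median difference of the 7 genes was -2.29 in M1 against M0, -0.69 in M2a against M0 and -0.26 in M1 against M2a, against 0.058, 0.069 and -0.021 over all genes. Both comparisons against M0 use the same 5 M0 arrays.

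**Figure D1:**
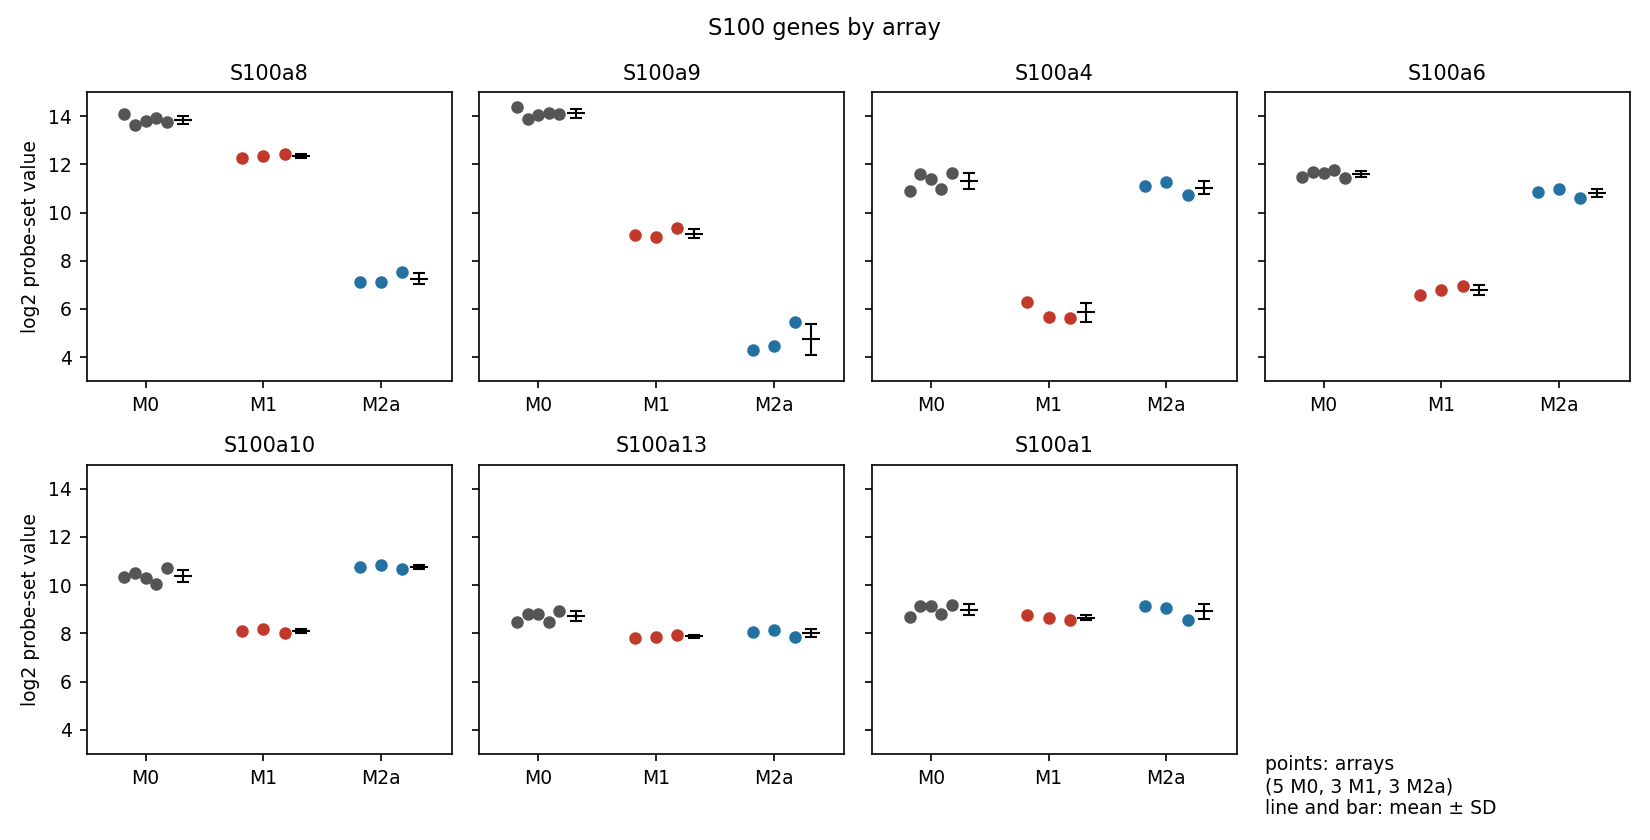
Deposited log2 probe-set values (y axis) of the 7 measured S100 genes on each array, by macrophage state (x axis: 5 M0, 3 M1 and 3 M2a arrays); points are arrays, and the line and bar beside them are the mean and SD. S100a8 and S100a9 step down from M0 to M1 to M2a, while S100a4, S100a6 and S100a10 are low in M1 and near M0 in M2a.

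The calprotectin genes were those with the largest falls in M2a. S100a8 (probe set 1419394_s_at) read 14.08, 13.65, 13.78, 13.91 and 13.76 on the 5 M0 arrays, 12.28, 12.36 and 12.42 on the M1 arrays, and 7.13, 7.11 and 7.53 on the M2a arrays. All M0 arrays lay above all M1 arrays, and all M1 arrays above all M2a arrays. S100a8 was 2.80-fold lower in M1 than in M0 (log2 difference -1.48, SE 0.13, limma adjusted p 2.8e-06) and 95.9-fold lower in M2a than in M0 (-6.58, SE 0.13, adjusted p 1.1e-10). M1 exceeded M2a by 34.3-fold (5.10, SE 0.14, adjusted p 2.9e-10).

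S100a9 (1448756_at) read 14.39, 13.89, 14.06, 14.14 and 14.08 in M0, 9.06, 8.97 and 9.35 in M1, and 4.31, 4.45 and 5.48 in M2a. The order of the states was the one seen for S100a8, again without overlap, and M2a array 3 stood above the other two M2a arrays. In M1 the gene was 31.7-fold lower than in M0 (-4.99, SE 0.23, limma adjusted p 2.1e-08). In M2a it was 659-fold lower (-9.37, SE 0.23, adjusted p 4.2e-10), which in this fit was the largest fall of the 18193 genes, and without M2a array 3 the difference was -9.73. M1 exceeded M2a by 20.8-fold (4.38, SE 0.26, adjusted p 1.4e-07). The files hold no call of presence above background, so how far the lowest values stand above it is unknown, and the M0 values lie near the top of the table's range.

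Although their proteins work as a pair, the measured falls of S100a8 and S100a9 were not equal. The change of S100a9 exceeded that of S100a8 by 3.50 in M1 (fall of 4.99 against fall of 1.48) and by 2.78 in M2a. The within-array difference of S100a9 minus S100a8 ran from 0.23 to 0.32 in M0, from -3.40 to -3.07 in M1 and from -2.82 to -2.05 in M2a, so neither cytokine state overlapped M0. An exact two-sided permutation test gave p = 0.0357 for each state, the smallest value that 3 against 5 arrays allow, and 0.0714 after Benjamini-Hochberg adjustment over 6 such tests, which misses 0.05. The gene pairs for these 6 tests were chosen after their values had been seen. Each gene was read by its own probe set, with M2a means of 7.26 for S100a8 and 4.75 for S100a9. Whether the probe sets respond alike near the ends of their range was not tested.

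Markers of granulocytes were lower than in M0 in both cytokine states, as the calprotectin genes were. Of 16 measured neutrophil-lineage genes, 15 were lower in M1 than in M0 and 15 were lower in M2a than in M0. The shares of all genes called lower were 17.6% and 13.3%. The list's median difference was -4.40 against M0 in each state. In M1 against M2a it was -0.15, where S100a8 and S100a9 differed by 5.10 and 4.38. The mean of the 16 genes ran from 9.62 to 11.10 over the M0 arrays, from 5.95 to 6.01 in M1 and from 5.31 to 5.49 in M2a. Mpo, the myeloperoxidase of neutrophil granules, was lower by 7.61 in M1, and its M0 arrays spread from 10.23 to 13.10. Within M0, 15 of the 16 genes were highest on array 1, as were S100a8 and S100a9. Bulk RNA cannot tell fewer cells of a type from less RNA per cell, and the part of these markers in the S100 values was not tested. Without M0 arrays 1 and 4, S100a8 differed by -1.38 in M1 and by -6.48 in M2a, and S100a9 by -4.88 and -9.26.

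Markers of other cell types were measured in the same way. Of all genes, 22.1% were called higher and 17.6% lower in M1 than in M0, and 18.6% and 13.3% in M2a. Counts near these shares say nothing particular of a cell type. Of 6 monocyte genes, 2 were lower in M1 and 4 were lower in M2a than in M0, with 1 higher, and their mean ran from 7.63 to 8.54 in M0, from 7.44 to 7.48 in M1 and from 5.64 to 5.69 in M2a. Plac8 fell by 2.06 in M1 and fell by 7.23 in M2a, and F13a1, the A chain of coagulation factor XIII, fell by 1.48 and fell by 6.57. Mast cell, basophil and eosinophil genes were lower in 9 of 10 cases in M1 and in 8 of 10 in M2a, with means from 6.74 to 8.53 in M0, from 4.18 to 4.26 in M1 and from 4.52 to 4.63 in M2a. Macrophage genes, 13 in number, had means from 9.76 to 10.53 in M0, from 10.38 to 10.42 in M1 and from 8.89 to 9.09 in M2a; 6 were higher and 3 lower in M1, and 2 were higher and 8 lower in M2a. Stromal genes were lower in 3 of 11 cases in M1 and in 8 of 11 in M2a, with means from 5.90 to 7.09 in M0, from 5.58 to 5.64 in M1 and from 4.33 to 4.65 in M2a. Of 10 T, B and NK cell genes, 4 were higher and 2 lower in M1 and 2 were higher and 2 lower in M2a, with means between 4.95 and 5.38 on every array. In M0, 8 of these 10 genes had a mean below the median gene.

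Within the neutrophil list, M1 and M2a differed for a few genes. Lcn2, which encodes the iron-binding protein lipocalin 2, was the 1 gene of the list not called in M1 against M0 (difference 0.20, limma adjusted p 0.56). It ran from 11.73 to 13.15 in M0 and from 12.62 to 12.68 in M1, which overlap, and from 3.68 to 4.23 in M2a, 8.42 below M0. Ngp, a neutrophil granule protein gene, fell by 5.73 in M1 and by 8.44 in M2a. Chil1, a chitinase-like gene, fell by 1.46 and by 3.66. In M1 against M2a these were the 3 genes of the list called higher, by 8.62 for Lcn2, 2.71 for Ngp and 2.20 for Chil1, where 3 others were lower and 10 were not called. In that comparison 13.7% of all genes were called higher and 15.6% lower. The granule genes of neutrophil precursors were low in both states. Prtn3 (proteinase 3) fell by 5.97 in M1 and 6.75 in M2a, Ltf (lactoferrin) fell by 6.53 and fell by 6.44, and neither they nor Mpo passed the test in M1 against M2a (adjusted p 0.17, 0.86 and 0.30).

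**Figure D2:**
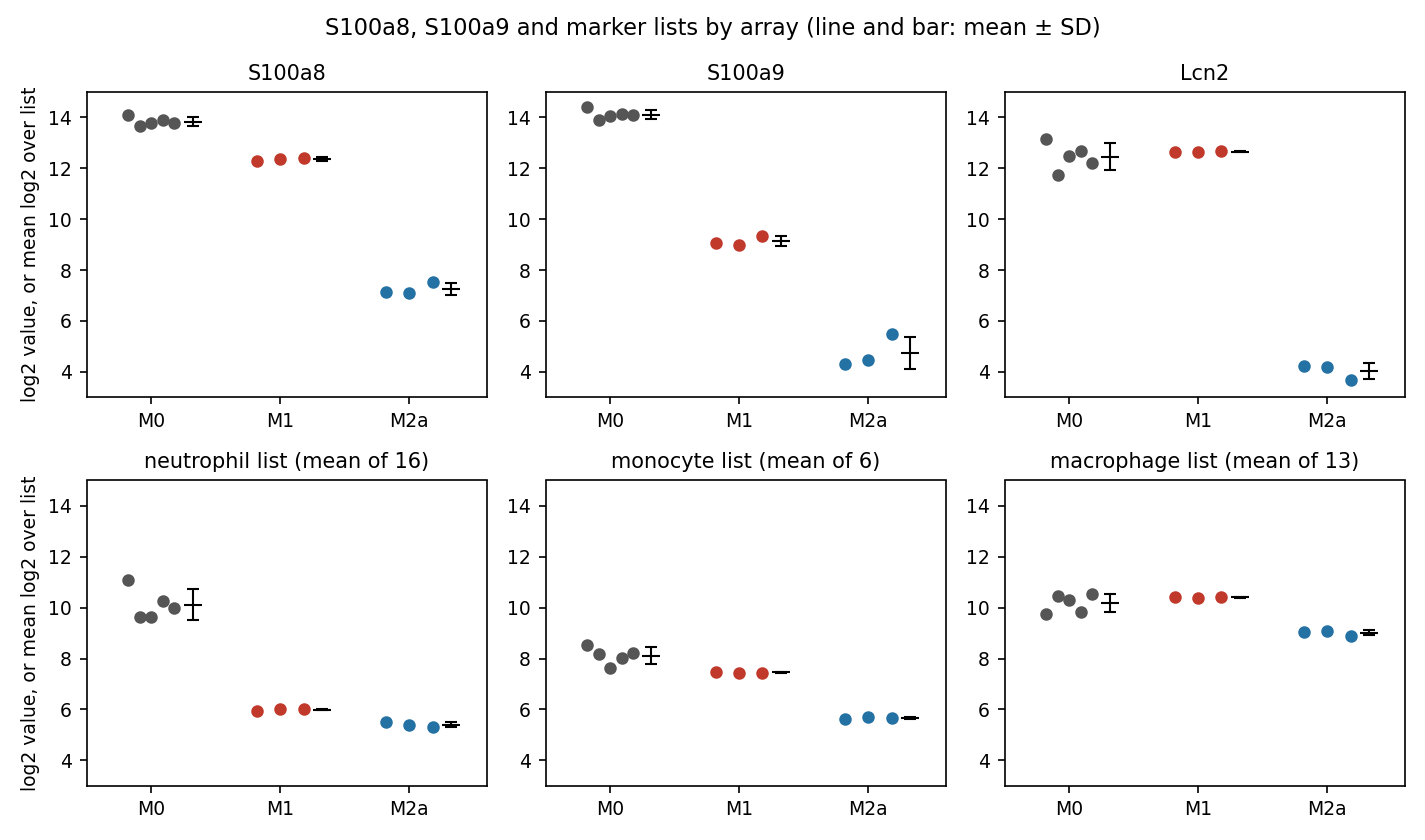
Log2 values of S100a8, S100a9 and Lcn2 and the mean log2 value over 3 marker lists (y axis) on each array, by macrophage state (x axis); points are arrays, and the line and bar are the mean and SD. S100a8 and Lcn2 stay above 11 in M0 and M1 and fall in M2a, S100a9 falls in both states, and the mean of the 16 neutrophil genes is below 6.02 in both states.

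The genes whose pattern over the 11 arrays was most like that of S100a8, by the root mean square difference after each gene's own mean was taken off, were F13a1 (0.28), Plac8 (0.45), Rab27a (0.59), Coro1a (0.71) and Id3 (0.74). Those most like S100a9 were Ngp (0.71), Prg2 (1.08), Plac8 (1.34), Prtn3 (1.47) and S100a8 (1.60). Rab27a encodes a GTPase of granule release, Coro1a the actin-binding coronin 1A, and Prg2 the major basic protein of eosinophils. S100a8 was thus among the 5 nearest genes of S100a9, whereas S100a9 ranked 58 among the genes nearest to S100a8. The distances describe these arrays and carry no test.

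Genes that regulate myeloid transcription, 12 of which were measured, moved in both directions: 5 were higher and 6 lower in M1 than in M0, and 1 was higher and 6 lower in M2a. The shares of all genes called were 39.7% and 31.9%, and 29.4% in M1 against M2a. Myb, a factor of progenitor cells, fell by 6.20 in M1 and by 5.96 in M2a, and its M0 arrays spread from 8.68 to 11.31. Gfi1, a repressor needed for neutrophil development, differed by -2.96 and -4.08, and Cebpd, a C/EBP factor, by -2.02 and -1.81. Hif1a, the oxygen-regulated factor, rose by 2.56 in M1, Cebpb by 1.06 and Irf8, a factor of the monocyte lineage, by 0.72; in M2a the 1 gene that rose was Spi1 (PU.1), by 0.42. Between the cytokine states 5 were higher in M1, led by Hif1a (2.64), Irf8 (1.16) and Stat3 (0.99), and 2 were lower, Cebpa (-1.24) and Bach1 (-0.64).

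Of 12 measured genes for receptors and signalling proteins that respond to S100 proteins, 7 were higher and 2 lower in M1 than in M0, and 1 was higher and 4 lower in M2a. Over all genes 39.7% were called in M1, 31.9% in M2a and 29.4% in M1 against M2a. Cd14, the LPS co-receptor, lay between 10.05 and 10.89 in M0, between 12.56 and 12.60 in M1 and between 9.12 and 9.35 in M2a, with no overlap between the states. It was 4.14-fold higher in M1 than in M0 and 2.49-fold lower in M2a (limma adjusted p 5.5e-06 and 0.00026). Bsg, which encodes the S100A9-binding surface protein basigin, rose by 2.39 in M1, and Ly96, the MD-2 subunit that completes TLR4, by 2.06; the M0 arrays of Ly96 spread from 5.94 to 8.54. Tlr4 itself did not pass the test in either state (differences of 1.07 and 0.89, adjusted p 0.082 and 0.16), and its sign depended on the fit: it passed as higher in M1 in 4 of 25 alternatives and as lower in both states once hybridization controls were a covariate (-1.72 and -1.61). Ager, the gene of RAGE, was 0.52 lower in M1 (adjusted p 0.036), and that call was lost in 12 of 24 alternative analyses, with the sign turned in 2 others.

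Other genes of the list moved in both directions. Cd33, a sialic acid-binding receptor, was lower by 0.39 in M1 and by 0.84 in M2a, and the M1 call was lost in 7 of 25 alternatives. Nlrp3, the inflammasome sensor, was 1.06 higher in M1 and 0.55 lower in M2a. Cd36, a scavenger receptor, was 1.32 higher in M1 (limma adjusted p 0.011) and was the 1 gene of the list higher in M2a (1.05, adjusted p 0.041 in limma), an M2a call lost in 11 of 25 alternatives, with the sign turned in 1 other. Between M1 and M2a, 7 of the 12 genes were higher in M1, led by Cd14 (3.36), Bsg (1.86) and Ly96 (1.67), and 1 was lower, the adaptor gene Ticam1 (-0.42), whose call was lost in 8 alternatives, as was that of Ly96 in 7.

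S100a4 and S100a6 showed the opposite order of the cytokine states. S100a4 (1424542_at) read 10.91, 11.62, 11.41, 10.99 and 11.63 in M0, 6.29, 5.66 and 5.62 in M1, and 11.12, 11.25 and 10.74 in M2a. Each M1 array was more than 4 log2 units below each array of the other states, and the M2a arrays overlapped those of M0. S100a4 was 43.9-fold lower in M1 than in M0 (-5.46, SE 0.22, limma adjusted p 6.0e-09) and 36.3-fold lower in M1 than in M2a (-5.18, SE 0.24, adjusted p 2.0e-08). M2a did not pass the test against M0 (-0.28, 95% interval -0.75 to 0.20, adjusted p 0.37); without M0 arrays 1 and 4 the difference was -0.52 with adjusted p 0.037.

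S100a6 (1421375_a_at) read 11.48, 11.69, 11.64, 11.76 and 11.45 on the M0 arrays, 6.56, 6.79 and 6.97 on those of M1, and 10.85, 10.97 and 10.61 on those of M2a. No states overlapped, with M1 far below the other two and M2a just below M0. The fall in M1 was 28.5-fold against M0 (-4.83, SE 0.12, limma adjusted p 1.7e-10) and 16.4-fold against M2a (-4.04, SE 0.14, adjusted p 1.6e-09). Against M0, M2a was 1.74-fold lower (-0.80, SE 0.12, adjusted p 0.00049).

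S100a4 and S100a6 were nearer each other in pattern than the calprotectin pair, with a root mean square difference of 0.54 against 1.60. S100a6 was the fifth nearest of all genes to S100a4, as S100a8 was to S100a9, and S100a4 was the ninth nearest to S100a6. Their changes differed by -0.62 in M1 (exact two-sided permutation p = 0.107, adjusted 0.129) and by 0.52 in M2a (p = 0.0714, adjusted 0.107). Neither passed, nor did the tests of the calprotectin pair after adjustment. With so few arrays, a test that does not pass cannot show that changes were equal. The genes nearest to S100a6 were Crip1 (0.28), Ccl6 (0.35), Tmem71 (0.36), Hacd1 (0.41) and Slco4a1 (0.42). S100a5 lies between S100a4 and S100a6 on the chromosome and was not called in any comparison, with values between 3.88 and 4.35 on all arrays.

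Partner proteins of the pair did not share one direction. Myh9, the heavy chain of the non-muscle myosin that S100A4 binds, fell by 1.01 in M1 and by 0.77 in M2a. Cacybp, which encodes the S100A6-binding protein, rose by 1.54 in M1, with M0 arrays from 8.03 to 9.61 and M1 arrays from 10.32 to 10.40, and in M2a it differed from M0 by -0.35 (limma adjusted p 0.32).

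S100a10 was low in M1 as well, by less. Its brightest probe set (1416762_at) read 10.34, 10.51, 10.30, 10.03 and 10.73 in M0, 8.09, 8.17 and 8.03 in M1, and 10.76, 10.82 and 10.68 in M2a. M1 lay below both other states without overlap, and M2a overlapped the highest M0 array. The gene was 4.87-fold lower in M1 than in M0 (-2.29, SE 0.14, limma adjusted p 1.7e-07) and 6.30-fold lower in M1 than in M2a (-2.65, SE 0.15, adjusted p 1.1e-07). M2a exceeded M0 by 0.37 (95% interval 0.07 to 0.67, adjusted p 0.058), just short of the threshold.

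The other two probe sets of S100a10 gave the fall in M1 and put M2a above M0. Probe set 1456642_x_at differed by -2.47 in M1 and by 0.66 in M2a (limma adjusted p over all probe sets 0.0022), and 1439348_at by -1.49 in M1 and 1.01 in M2a (adjusted p 3.9e-05). With the mean of the 3 probe sets in place of the brightest, the rise in M2a was 0.68 (adjusted p 0.00045). M2a was thus above M0 in all 3 probe sets and the call depended on the probe set; with the hybridization controls as a covariate the brightest one gave -0.15 (adjusted p 0.51).

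The partner genes Anxa1, Anxa2 and Ahnak were ordered M2a above M0 above M1, while Pla2g4a, another S100A10 partner, was highest in M1. The other annexin genes of the partner list did not share this order. Anxa6 rose by 1.49 in M1 (limma adjusted p 1.1e-05) and by 0.68 in M2a (adjusted p 0.0046), and Anxa5 was called in no comparison. Anxa2, the gene of annexin A2, lay between 11.30 and 11.72 in M0, between 9.42 and 9.59 in M1 and between 12.90 and 13.03 in M2a; it fell by 2.06 in M1 and rose by 1.44 in M2a (limma adjusted p 4.3e-08 and 1.5e-06). Ahnak, a giant scaffold protein that binds the S100A10-annexin A2 complex, fell by 1.11 and rose by 2.04. Anxa1, the gene of annexin A1, which S100A11 binds, fell from values of 11.61 to 12.09 in M0 to values of 6.35 to 6.61 in M1, and rose to between 13.01 and 13.20 in M2a, differences of -5.36 and 1.26. Anxa2, Ahnak and Anxa1 did not overlap between any of the states. In M2a the change of S100a10 was smaller than that of Anxa2 by 1.07 (exact two-sided permutation p = 0.0357, adjusted 0.0714), and in M1 the changes differed by -0.22 (p = 0.214, adjusted 0.214). These tests used the S100a10 probe set with the smallest rise in M2a. Over the alternatives the change of S100a10 minus that of Anxa2 ran from -1.35 to -0.32 in M2a and from -1.27 to -0.14 in M1.

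**Figure D3:**
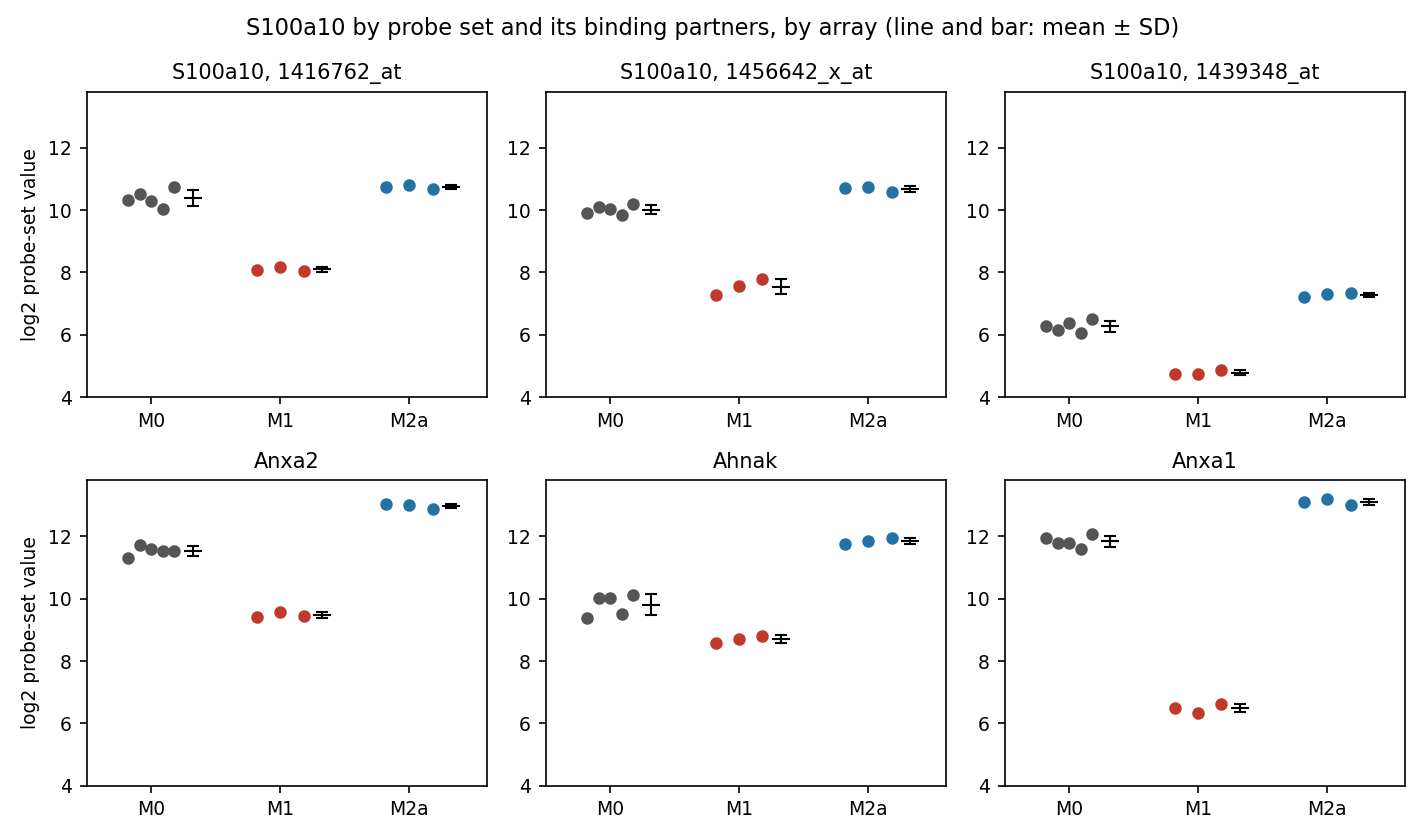
Log2 values (y axis) of the 3 probe sets of S100a10 and of Anxa2, Ahnak and Anxa1 on each array, by macrophage state (x axis); points are arrays, and the line and bar are the mean and SD. Every panel is lowest in M1, and in every panel the M2a mean is above the M0 mean, by 0.37 in the brightest S100a10 probe set and by up to 2.04 in Ahnak.

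Over the whole partner list, 15 genes of which were measured, 5 were higher and 5 lower in M1 than in M0, and 4 were higher and 1, Myh9, lower in M2a. Among all genes 39.7% were called in M1 and 31.9% in M2a, and 29.4% in M1 against M2a. The partner count in M2a was near that share. The 3 largest rises in M1 were those of Il1a, Pla2g4a and Cacybp. Pla2g4a, the cytosolic phospholipase A2 that S100A10 binds, rose by 3.01, with M0 arrays from 7.36 to 9.25. Between M1 and M2a, 5 were higher in M1, led by Il1a (3.73), Pla2g4a (2.68) and Cacybp (1.89), and 3 were lower, Anxa1 (-6.62), Anxa2 (-3.50) and Ahnak (-3.15).

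S100a13 fell in both cytokine states. The gene (1418704_at) read 8.49, 8.82, 8.82, 8.49 and 8.93 in M0, 7.80, 7.87 and 7.95 in M1, and 8.08, 8.14 and 7.85 in M2a. All arrays of both cytokine states lay below all M0 arrays, and M1 and M2a overlapped. It was 1.78-fold lower in M1 (-0.83, SE 0.12, limma adjusted p 0.00027) and 1.61-fold lower in M2a (-0.69, SE 0.12, adjusted p 0.0014) than in M0. M1 minus M2a was -0.15, with a 95% interval of -0.45 to 0.16. Il1a, whose product IL-1 alpha is released with S100A13, ran from 5.15 to 5.92 in M0, from 9.04 to 9.16 in M1 and from 5.32 to 5.38 in M2a; it was 10.7-fold higher in M1 than in M0 (3.42, adjusted p 1.8e-08) and did not pass the test in M2a (-0.31, adjusted p 0.16). Fgf1, the gene of FGF1, went the other way: it ran from 4.88 to 5.71 in M0, from 4.37 to 4.40 in M1 and from 4.67 to 4.91 in M2a, 0.90 lower in M1 than in M0 (limma adjusted p 0.0021) and 0.47 lower in M2a without passing the test (adjusted p 0.068), which it did in 8 of 24 alternatives. The M1 call of Fgf1 was lost with the actin covariate (-0.41, adjusted p 0.091).

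S100a1, head to head with S100a13, passed the test in none of the 3 comparisons. Its brighter probe set (1419814_s_at) read 8.68, 9.15, 9.15, 8.80 and 9.19 in M0, 8.77, 8.65 and 8.55 in M1, and 9.12, 9.04 and 8.58 in M2a. The arrays of all 3 states overlapped. M1 differed from M0 by -0.34 (95% interval -0.68 to 0.01, limma adjusted p 0.11), M2a from M0 by -0.08 (-0.42 to 0.26, adjusted p 0.73) and M1 from M2a by -0.26 (-0.64 to 0.13, adjusted p 0.31). The second probe set differed by -0.35, -0.16 and -0.19 in these comparisons. Of the M0 arrays, 1 and 4 were the lowest for S100a1, and without them the M1 difference was -0.51 with adjusted p 0.0074; without array 1 alone it was -0.42 with adjusted p 0.046.

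**Figure D4:**
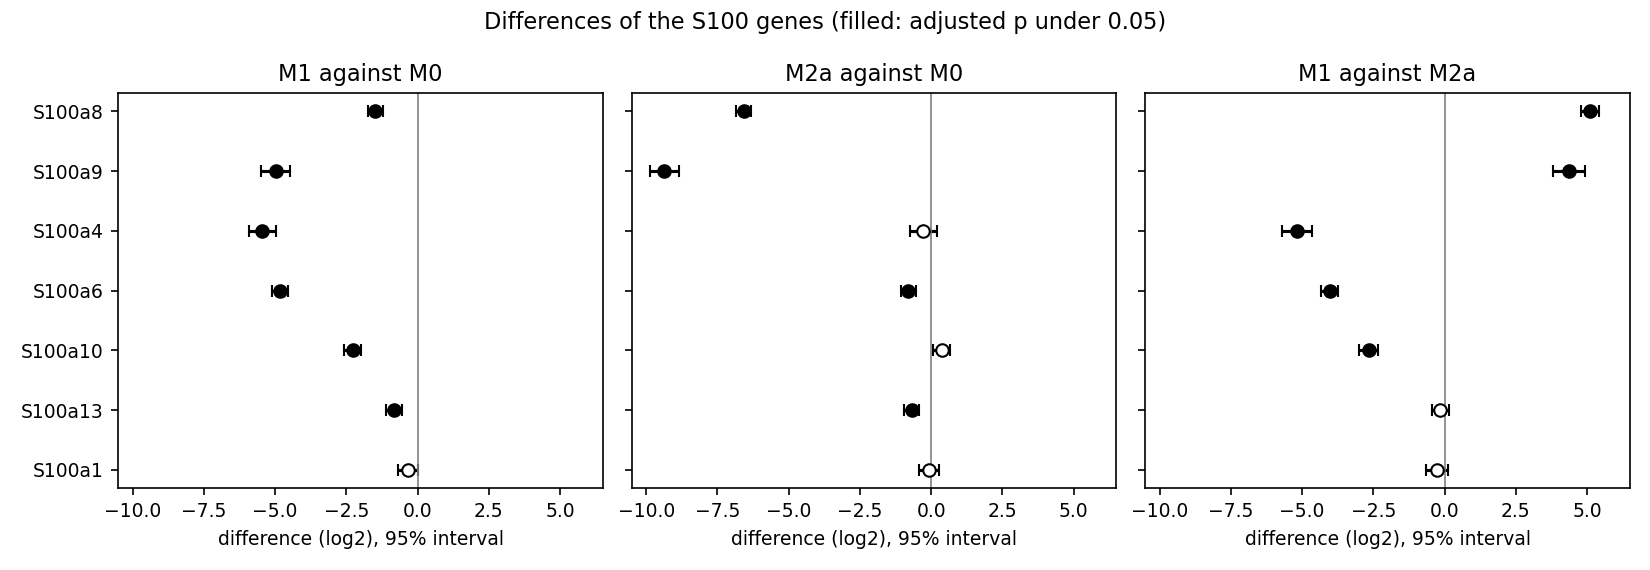
Log2 differences of the 7 S100 genes (x axis, with 95% intervals of the limma fit as bars) in the 3 comparisons; filled points have an adjusted p under 0.05. S100a8 and S100a9 lie to the right of 0 in M1 against M2a, at 5.10 and 4.38, and S100a4, S100a6 and S100a10 to the left, at -5.18, -4.04 and -2.65.

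Few of the other S100 genes passed the test in the chosen fit, and most were dim. Of 11 other S100 genes listed, 7 were measured, and 1 was called in M1 against M0, 0 in M2a against M0 in limma (2 at an unadjusted p under 0.05) and 1 in M1 against M2a. Of all genes, 39.7%, 31.9% and 29.4% were called in these comparisons. Over the alternatives the number called higher ran from 0 to 4 in M1, 0 to 5 in M2a and 0 to 2 in M1 against M2a. The number called lower was 0 in M1 and ran from 0 to 1 in M2a and 0 to 3 in M1 against M2a. S100a14 passed as higher in M2a in 9 of 24 alternatives and S100a7l2 in 5 of 24. S100a3 passed as higher in M1 against M2a in 10 of 21. In M0, 6 of the 7 had a mean below the median gene (5.96), and how far such values stand above background is unknown. S100a3 was the gene called in M1: it read 3.17, 2.87, 3.18, 3.48 and 2.67 in M0 and 4.19, 3.98 and 3.57 in M1, without overlap, a difference of 0.84 (adjusted p 0.0037), and from 3.25 to 3.51 in M2a. S100b, the gene called in M1 against M2a (0.33, adjusted p 0.048), had a second probe set that went the other way (-0.32), and the call was lost in 8 of 21 alternatives. S100a16 lay between 6.85 and 7.34 on all arrays, and its differences were between -0.09 and 0.09; its dimmer probe set was lower by 0.48 in M2a than in M0 (adjusted p over all probe sets 0.0038). S100a7l2, S100a14 and S100g lay between 2.92 and 4.59, and the largest of their differences from M0 was 0.33.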

How the data were processed

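The samples were RNA from 11 cultures of sorted mouse bone-marrow macrophages, grouped by the labels into M0 (5), M1 (3) and M2a (3). Each array's deposited values, 45101 in number, are log2 probe-set values made by the authors. The submitters' processing notes name Partek; how background, probes and arrays were treated is not given in the sources used here, so a difference is in the authors' scale. No depth exists for arrays, and their number limits the precision.

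Of 35890 probe sets in the platform's gene table, 34945 had 1 symbol, and 34741 of these took their current symbol by Entrez number; 932 with several symbols were left out. Each of 18193 genes took its probe set of highest mean over the arrays, without a filter on low values. Differences were tested with limma 3.58.1 under R 4.3.3 (lmFit, then eBayes, all 11 arrays, a mean per group, 8 residual degrees of freedom) with Benjamini-Hochberg adjustment over all genes and a threshold of 0.05. The test was checked on simulated data with independent arrays and the same spread in every group. The check therefore does not cover the tied and wider M0 arrays. Pairs of genes were compared with exact permutation tests over arrays (SciPy 1.17.1). The replicate numbers were not used to pair the arrays in the chosen fit. Same-numbered arrays of different groups had deviations that correlated between -0.039 and 0.25. Arrays of unlike number were not correlated for comparison, so whether the numbers pair the arrays is unknown.

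Named genes were every S100 gene measured, up to 3 higher and 3 lower called genes of each list of partners, receptors and regulators, the leading marker genes, and the 5 genes most like S100a8, S100a9 and S100a6 (the other member called in all 3 comparisons). Tlr4, Fgf1, Myh9, Cd33, Nlrp3, Anxa5, Anxa6 and the genes set beside them were named for their place in the text. The members and lists were chosen with earlier results of these data known. Alternatives were 2 normalizations, 2 choices of probe set, a filter on low values, other eBayes settings, fits of fewer arrays, array weights, 2 control covariates, a replicate block and each array left out in turn.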

Additional observations from a re-analysis of the deposited data

How the results depend on the processing

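Over 501 alternative values of the 21 differences of the 7 S100 genes, 484 kept the direction and side of the threshold (a difference not called has no direction here), 17 passed the threshold where the chosen fit did not, and none lost a call or reversed one. The cause of each change below was not tested. For S100a1 in M1 against M0 (-0.34) the test passed with quantile normalization (-0.54), array weights (-0.47), without M0 arrays 1 and 4 (-0.51) and with a hybridization-control covariate (-0.93), and leaving out 1 array gave -0.42 to -0.28. For S100a4 in M2a against M0 it passed without M0 arrays 1 and 4 (-0.52) and with that covariate (-1.14). S100a10 in M2a against M0 passed as a rise, making the count of S100 genes called higher 1 in place of 0, with quantile normalization (0.29), the mean of its probe sets (0.68), genes above the median gene (0.37), array weights (0.37), M0 arrays 1 to 3 (0.37), the replicate block (0.37, adjusted p 0.012) and the actin covariate (0.35); leaving out 1 array gave 0.28 to 0.46 and counts of 0 to 1, with the call made without M0 array 5. In M1 against M2a, array weights called 5 S100 genes lower in place of 3, adding S100a1 (-0.34) and S100a13 (-0.19), and without _x_at and _s_at probe sets 1 was higher in place of 2, because S100a8 has no other.

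Genes called in M1 against M0 (7217) were 4625 of those above the median gene, 4758 with M0 arrays 4 and 5 and 8023 with the replicate block, and 5391 to 8457 with 1 array left out. In M2a against M0 (5804) they were 3801 with M0 arrays 4 and 5, 9008 with the hybridization covariate (2705 in place of 1703 at 2-fold) and 6492 with the block, and 4161 to 6829 with 1 array left out. In M1 against M2a (5341) they were 10357 in a fit of those groups, 11342 with array weights, 8442 with the hybridization covariate and 6963 with the block, and 3927 to 6192 with 1 array left out.

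Turned signs are listed only where the chosen fit or the alternative made a call. S100a10 in M2a against M0 (0.37 to -0.15) is thus left out. Signs turned with the hybridization covariate in M1 against M0 for S100a7l2 (0.42), S100a14 (0.58), S100g (0.52), Ager (0.38), Ly96 (-0.65), Cd36 (-0.72), Tlr4 (-1.72), Fgf1 (0.13) and Chil1 (0.25). In M2a against M0 they turned for Adgre1 (-0.32), Pla2g4a (-1.29), Ager (0.75), Bsg (-0.50), Ly96 (-2.04), Tlr4 (-1.61), Fgf1 (0.46) and Cd36 (-0.78). S100a7l2, S100a14, S100g and Tlr4 in M1 were not called in the chosen fit and were called in the turned direction. The same held for Pla2g4a, Ager, Bsg, Ly96, Tlr4 and Fgf1 in M2a. Signs turned with the actin covariate for Ager in M1 against M0 (0.043) and Cd36 in M1 against M2a (-0.82), and without _x_at and _s_at probe sets for Ager in M2a against M0 (0.49).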
